A study of Mus musculus with 13 samples.

Results

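The 10 genes described here encode the machinery that displays peptides from inside a cell on MHC class I molecules. They are the heavy chains H2-K1, H2-D1 and H2-T23, the light chain B2m, the peptide transporter Tap1 and Tap2, the loading factor Tapbp, the immunoproteasome subunits Psmb8 and Psmb9, and the transcriptional regulator Nlrc5. They were chosen by name and by role, with earlier results of these data known. All 10 were found among the 55536 annotated genes, and all 10 passed the filter on low counts that left 17483 genes for testing. RNA sequencing was carried out on 13 libraries of mouse frontal cortex. 5XFAD mice model amyloid deposition through human transgenes with familial Alzheimer's disease mutations, APP included, which regulatory sequence of mouse Thy1 drives mainly in neurons. The groups were 3 libraries of 5XFAD mice at 11 months, 3 of wild-type mice at 11 months, 3 of 5XFAD mice at 6 months and 4 of wild-type mice at 6 months. The strain is labelled 5XFAD for the transgenic libraries and B6SJLF1/J, a cross of C57BL/6J and SJL/J mice, for the wild-type libraries.

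Proteasomes cut proteins into peptides, and the immunoproteasome is a form in which inducible catalytic subunits replace the constitutive ones. The peptides are pumped into the endoplasmic reticulum, loaded onto a heavy chain paired with B2m and carried to the cell surface, where CD8 T cells and natural killer cells read them. Interferons induce most of these genes together, and NLRC5 acts through conserved promoter elements of class I genes. In the healthy brain the pathway is low, with microglia, the resident macrophages, and endothelial cells among its main sites of expression.

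Promoter windows of 250 bases before to 50 bases after the annotated start were available from RefSeq (GRCm38.p6) for 8 of the 10 genes, and not for Tap2 and Nlrc5. The windows of the 2 classical heavy chains and of B2m, which form the surface complex, are shown with that of H2-T23, the heavy chain that did not pass any test below. Each window is printed in the direction in which its gene is read. Capitals mark, in that order, GGGNNTTCC (a kB site core), the reverse of GAANNGAAA (a spelling of the interferon response element core) and TGACG (the core of the X2 box). They then mark ATTGG (the reversed CCAAT core of the Y box) and CCAAT itself. No marked match overlaps another.
H2-K1 (chr17:34000298-34000597, minus strand): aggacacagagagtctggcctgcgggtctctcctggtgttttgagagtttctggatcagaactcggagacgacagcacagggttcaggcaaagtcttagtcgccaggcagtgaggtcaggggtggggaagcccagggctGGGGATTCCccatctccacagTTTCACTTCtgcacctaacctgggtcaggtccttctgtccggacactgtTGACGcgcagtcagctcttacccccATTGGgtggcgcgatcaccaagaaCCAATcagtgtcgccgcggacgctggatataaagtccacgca
H2-D1 (chr17:35262844-35263143, plus strand): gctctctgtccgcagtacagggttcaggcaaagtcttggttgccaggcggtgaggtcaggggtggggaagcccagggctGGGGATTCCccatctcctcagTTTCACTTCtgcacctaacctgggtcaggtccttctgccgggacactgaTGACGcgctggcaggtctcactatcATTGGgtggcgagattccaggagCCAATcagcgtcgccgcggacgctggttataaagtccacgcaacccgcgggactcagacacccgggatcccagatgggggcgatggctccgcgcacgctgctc
B2m (chr2:122147437-122147736, plus strand): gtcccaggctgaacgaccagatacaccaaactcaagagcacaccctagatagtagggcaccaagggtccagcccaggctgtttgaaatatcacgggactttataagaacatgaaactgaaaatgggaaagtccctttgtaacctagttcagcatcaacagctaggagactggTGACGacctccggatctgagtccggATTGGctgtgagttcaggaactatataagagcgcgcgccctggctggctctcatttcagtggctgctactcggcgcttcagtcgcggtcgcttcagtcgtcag
H2-T23 (chr17:36032652-36032951, minus strand): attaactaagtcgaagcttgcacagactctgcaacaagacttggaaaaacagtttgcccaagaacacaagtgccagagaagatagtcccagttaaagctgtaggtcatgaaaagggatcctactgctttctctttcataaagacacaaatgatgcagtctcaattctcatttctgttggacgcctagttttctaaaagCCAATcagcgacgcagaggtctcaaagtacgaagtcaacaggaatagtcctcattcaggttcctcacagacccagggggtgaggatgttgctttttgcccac

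In these windows TGACG was followed by ATTGG at a distance of 20 bases in each of H2-K1, H2-D1 and B2m. This arrangement, with 15 to 25 bases between the cores, was looked for after the sequences had been read, and it occurs in 0.435% of the 32851 windows of the table. Searched on both strands, CCAAT was found in 7 of the 8 windows (all but Psmb8) and in 37.4% of all windows. TGACG was found in 5 (H2-K1, H2-D1, B2m, Tap1 and Psmb9) and in 20.8% of all windows, and a second match in B2m, on the minus strand, is not capitalised. GAANNGAAA and GGGNNTTCC were each found in H2-K1 and H2-D1 alone among the members, and in 7.52% and 5.82% of all windows. TTCNNNGAA, an interferon gamma activated site core, was found in Psmb8 and in 8.3% of all windows. The windows of H2-K1 and H2-D1 were identical at 206 of 228 aligned positions (90.4%), and those of Tap1 and Psmb9, which are read in opposite directions, overlapped by 275 bases. These are matches of letters and not measured binding.

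Library totals lay between 23618289 and 26615772 counts. Sex was read from Xist, with over 5 CPM (counts scaled by TMM to a common library total) taken as female. By this measure 2 of 3 5XFAD and 1 of 3 wild-type libraries were female at 11 months, and 0 of 3 5XFAD and 2 of 4 wild-type libraries at 6 months. Wild-type replicate 1 at 6 months stood apart by 2967 CPM of summed choroid plexus markers, against 5.05 to 37.7 CPM in the other 12 libraries, and without it H2-K1 alone among the members lost its call at 6 months. The heavy chains are polymorphic, C57BL/6J and SJL/J carry different H2 haplotypes, and reads from an allele unlike the C57BL/6 genome fit it less well. The haplotype of each library was not tested, so allele and expression cannot be told apart for the heavy chains. The same limit holds for Tap1, Tap2, Tapbp, Psmb8 and Psmb9, which lie near them on chromosome 17. In tissue, more cells that express a gene and more RNA per cell cannot be told apart either.

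At 11 months the class I genes stood higher in 5XFAD cortex almost throughout. In edgeR's quasi-likelihood test 9 of the 10 members rose, all but H2-T23, and 0 fell, while 3.8% of all tested genes rose and 0.503% fell. The members' median log2 fold change was 1.48, against -0.03 over all genes tested, and their values ran from 0.50 to 2.31. For the same 9 members every 5XFAD library lay above every wild-type library, as was true of 10.4% of all genes (8.76% lay apart in the lower direction). At 6 months 4 of the 10 rose (H2-K1, H2-D1, B2m and Psmb8) and 0 fell, while 1.3% of all genes rose and 0.0172% fell. Mitochondrial genes took 9.94% to 9.99% of counts in 5XFAD and 8.38% to 8.88% in wild type at 6 months, apart between the genotypes, and 10.1% to 11.3% in 5XFAD and 7.89% to 11.4% in wild type at 11 months, with overlap. The part of this share in the results was not tested. The members' median at 6 months was 0.66, against -0.01 over all genes, and 7 members did not overlap between the genotypes, as was true of 6.97% of all genes (5.07% in the lower direction). Among the libraries read as male alone, an alternative chosen after seeing the data, H2-D1 and B2m alone were called at either age, with 1 5XFAD library against 2 of wild type at 11 months.

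**Figure D1:**
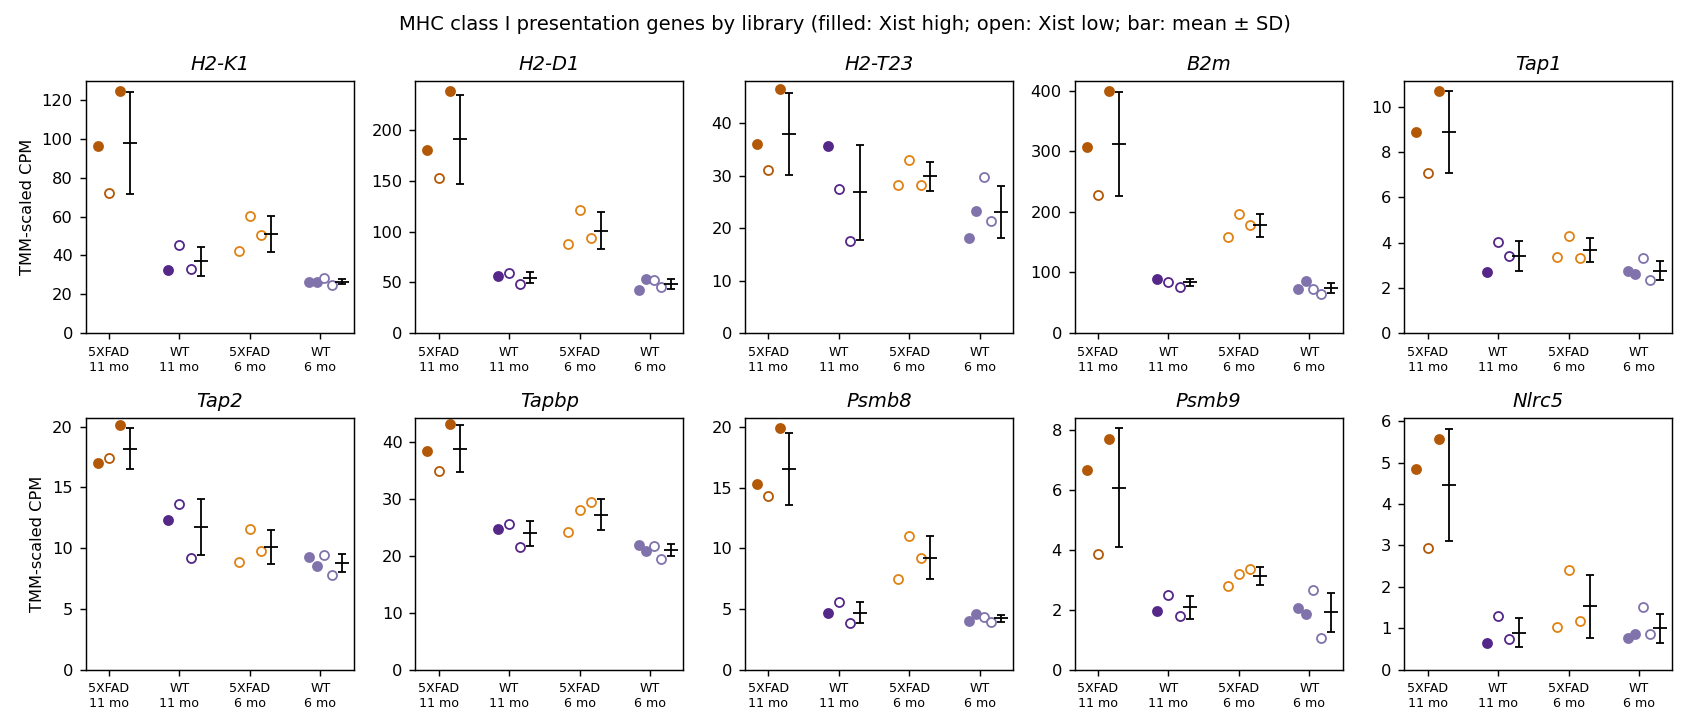
TMM-scaled CPM (linear axes from 0) of the 10 members in each of the 13 libraries. Points are libraries (filled, Xist high; open, Xist low), and bars give the group mean ± SD; 5XFAD libraries at 11 months are the highest group in every panel, and for H2-T23 alone they overlap wild type of the same age.

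Of the surface complex, B2m is the invariant light chain that every class I heavy chain needs. B2m (ENSMUSG00000060802; chromosome 2, 122147686 to 122153083 in GRCm38) stood at 308, 228.5 and 399 CPM in 5XFAD libraries at 11 months, against 89.6, 84.3 and 76.5 CPM in wild type. At 6 months it stood at 158, 197 and 178.5 CPM in 5XFAD, against 72.8, 85.8, 73.3 and 64.6 CPM in wild type. The genotypes were thus apart at both ages, and each 5XFAD library at 11 months lay above each at 6 months. The log2 fold change of 5XFAD over wild type was 1.90 ± 0.17 (SE; adjusted p = 1.507e-05) at 11 months and 1.26 ± 0.16 (adjusted p = 0.0004733) at 6 months.

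H2-D1 is a classical heavy chain, which presents peptides to CD8 T cells. H2-D1 (ENSMUSG00000073411; chromosome 17, 35262730 to 35267499) stood at 181, 153 and 239 CPM in 5XFAD at 11 months, against 56.6, 59.0 and 48.2 CPM in wild type. The 6-month levels of H2-D1 were 88.2, 122 and 93.4 CPM in 5XFAD, against 42.8, 53.3, 52.2 and 45.6 CPM in wild type. No 5XFAD library reached down to a wild-type library at either age. For H2-D1 the log2 fold change was 1.81 ± 0.17 (adjusted p = 1.653e-05) at 11 months and 1.06 ± 0.15 (adjusted p = 0.001743) at 6 months. H2-K1, the other classical heavy chain (ENSMUSG00000061232; chromosome 17, 33996017 to 34000347), stood at 96.5, 72.4 and 125 CPM in 5XFAD at 11 months, against 32.5, 45.4 and 32.9 CPM in wild type. H2-K1 at 6 months had 42.0, 60.2 and 50.6 CPM in 5XFAD, against 26.4, 26.4, 28.3 and 24.8 CPM in wild type. The groups were again apart, although wild-type replicate 2 at 11 months lay above the lowest 5XFAD library at 6 months. Its log2 fold change was 1.41 ± 0.19 (adjusted p = 0.0005214) at 11 months and 0.94 ± 0.18 (adjusted p = 0.01546) at 6 months. The 6-month call of H2-K1 ended without wild-type replicates 1, 2 or 4 or without 5XFAD replicates 2 or 3 (adjusted p from 0.05251 to 0.08125) and on the TPM scale (adjusted p = 0.05511).

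H2-T23 is a non-classical heavy chain, known as Qa-1, that presents leader peptides of other class I chains to receptors of natural killer cells. H2-T23 (ENSMUSG00000067212; chromosome 17, 36029773 to 36032855) stood at 36.1, 31.2 and 46.65 CPM in 5XFAD at 11 months, against 35.6, 27.4 and 17.6 CPM in wild type. The 6-month levels of H2-T23 were 28.3, 33.1 and 28.3 CPM in 5XFAD, against 18.1, 23.2, 29.8 and 21.4 CPM in wild type. The genotypes overlapped at both ages, and the log2 fold changes of 0.50 ± 0.24 (adjusted p = 0.3361) at 11 months and 0.37 ± 0.22 (adjusted p = 0.6905) at 6 months did not pass. Within wild type at 11 months its libraries differed more than those of any other member except Nlrc5, with a coefficient of variation of 33.6%. Of all 50-base stretches of the annotated transcripts, 13.6% in H2-T23, 12.8% in H2-D1 and 9.63% in H2-K1 also occur in other genes, so part of their expected counts was shared out by the quantifier. For B2m, Psmb9 and Nlrc5 the share was 0, and for the other members it was at most 2.87%. The whole of H2-T23 also lies opposite the antisense gene A930015D03Rik, and the strand setting of the counting is not given in the sources used here.

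Per transcript length, in TPM (a level scaled by transcript length to the same total in each library), B2m was the most abundant member in every group. It averaged 639 ± 159 TPM in 5XFAD and 189 ± 22.8 TPM in wild type at 11 months, and 356 ± 40.8 TPM in 5XFAD and 164 ± 19.9 TPM in wild type at 6 months (SD; n = 3, except n = 4 in wild type at 6 months). H2-K1 came next and H2-D1 after it, at 196 and 142 TPM in 5XFAD at 11 months, against 82.7 and 43.4 TPM in wild type. Among neighbours in this order, the libraries of H2-K1 and H2-D1 overlapped only in 5XFAD at 11 months, and those of H2-D1 and H2-T23 only in wild type at 11 months. H2-T23, Tapbp, Psmb8, Tap2, Psmb9, Tap1 and Nlrc5 followed, with Psmb8 above Tapbp in 5XFAD at 11 months (26.4 and 21.2 TPM) and below it in the other groups. Nlrc5 was last in every group, at 2.01 TPM in 5XFAD and 0.437 TPM in wild type at 11 months. The ratio of B2m to the 3 heavy chains summed, in TPM, was 1.69 ± 0.064 in 5XFAD and 1.22 ± 0.119 in wild type at 11 months, and 1.65 ± 0.111 in 5XFAD and 1.26 ± 0.134 in wild type at 6 months. That of H2-D1 to H2-K1 was 0.741 ± 0.106 in 5XFAD and 0.527 ± 0.037 in wild type at 11 months, and 0.682 ± 0.0186 in 5XFAD and 0.602 ± 0.0723 in wild type at 6 months. The B2m ratio did not overlap between the genotypes at either age. The H2-D1 ratio overlapped between them at 6 months and did not overlap at 11 months. Neither ratio was tested.

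**Figure D2:**
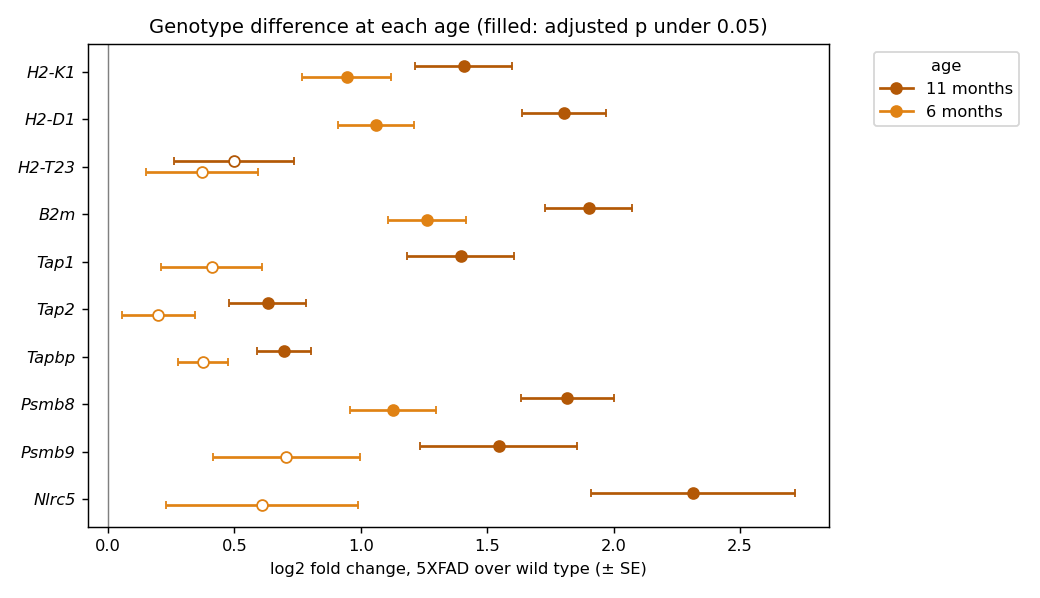
Log2 fold change of 5XFAD over wild type for each member at 11 months and at 6 months, with standard errors; filled points have an adjusted p under 0.05. All 20 values are above 0, and the 11-month value is the larger for each gene.

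Tap1 and Tap2 are the partner chains of the transporter that moves peptides into the endoplasmic reticulum. Tap1 (ENSMUSG00000037321; chromosome 17, 34187553 to 34197225) stood at 8.90, 7.10 and 10.7 CPM in 5XFAD at 11 months, against 2.71, 4.04 and 3.41 CPM in wild type. Tap1 at 6 months had 3.38, 4.27 and 3.34 CPM in 5XFAD, against 2.74, 2.60, 3.34 and 2.33 CPM in wild type. The 11-month 5XFAD libraries thus stood apart from all others, while at 6 months the lowest 5XFAD library (3.342 CPM) was barely above the highest wild-type library (3.336 CPM). For Tap1 the log2 fold change was 1.39 ± 0.21 (adjusted p = 0.000955) at 11 months and 0.41 ± 0.20 (adjusted p = 0.5725) at 6 months. Tap2 (chromosome 17, 34203527 to 34216321) ranged from 16.99 to 20.1 CPM in 5XFAD and from 9.20 to 13.7 CPM in wild type at 11 months, a log2 fold change of 0.63 ± 0.15 (adjusted p = 0.02877). This call ended on the TPM scale (adjusted p = 0.05885), in a fit of the 11-month libraries alone (0.1133), with sex as a covariate (0.06144), and without any single 11-month library except wild-type replicate 2 (from 0.05237 to 0.1612). At 6 months Tap2 ranged from 8.82 to 11.6 CPM in 5XFAD and from 7.80 to 9.46 CPM in wild type (0.20 ± 0.14, adjusted p = 0.7574). Tap1 over Tap2 in TPM was 0.507 ± 0.0373 in 5XFAD and 0.333 ± 0.0552 in wild type at 11 months, and 0.372 ± 0.0426 in 5XFAD and 0.306 ± 0.0532 in wild type at 6 months, a ratio that was not tested.

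Tapbp encodes tapasin, which holds the heavy chain at the transporter while a peptide is chosen. Tapbp (ENSMUSG00000024308; chromosome 17, 33915899 to 33929292) stood at 38.4, 34.8 and 43.0 CPM in 5XFAD at 11 months, against 24.7, 25.5 and 21.4 CPM in wild type. The 6-month levels of Tapbp were 24.1, 28.1 and 29.4 CPM in 5XFAD, against 21.9, 20.8, 21.6 and 19.5 CPM in wild type. The genotypes did not overlap at either age, though the steps were small beside those of B2m and H2-D1. Its log2 fold change was 0.70 ± 0.11 (adjusted p = 0.001031) at 11 months and 0.38 ± 0.10 (adjusted p = 0.1076) at 6 months. DESeq2 called the 6-month difference (adjusted p = 0.04256), as did limma voom with sample quality weights (0.01784). Tapbp overlaps Zbtb22 on the same strand over 3422 bases of the genome.

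Psmb8 and Psmb9 are inducible catalytic subunits that turn the proteasome into the immunoproteasome. Psmb8 (ENSMUSG00000024338; chromosome 17, 34197721 to 34201454) stood at 15.3, 14.35 and 19.95 CPM in 5XFAD at 11 months, against 4.66, 5.57 and 3.83 CPM in wild type. The 6-month levels of Psmb8 were 7.47, 11.0 and 9.21 CPM in 5XFAD, against 4.05, 4.59, 4.34 and 3.92 CPM in wild type. All 6 5XFAD libraries lay above all 7 wild-type libraries. For Psmb8 the log2 fold change was 1.82 ± 0.18 (adjusted p = 3.083e-05) at 11 months and 1.13 ± 0.17 (adjusted p = 0.002433) at 6 months. Psmb9 (ENSMUSG00000096727; chromosome 17, 34181987 to 34187764) stood at 6.68, 3.87 and 7.71 CPM in 5XFAD at 11 months, against 1.95, 2.50 and 1.79 CPM in wild type. Psmb9 at 6 months had 2.78, 3.21 and 3.38 CPM in 5XFAD, against 2.05, 1.87, 2.68 and 1.06 CPM in wild type. The genotypes were apart at both ages, by a narrow gap at 6 months. For Psmb9 the log2 fold change was 1.55 ± 0.31 (adjusted p = 0.008683) at 11 months and 0.70 ± 0.29 (adjusted p = 0.4743) at 6 months, and the 11-month call ended without 5XFAD replicate 3 (adjusted p = 0.05947). Psmb9 and Tap1 overlap by 212 bases on opposite strands.

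Each inducible subunit was also set beside the constitutive subunit it replaces, as a ratio of TPM in the same library. Psmb8 amounted to 11.97%, 12.9% and 15.9% of Psmb5 in 5XFAD at 11 months, against 3.34%, 5.6% and 3.79% in wild type. At 6 months it amounted to 4.4%, 6.85% and 5.9% in 5XFAD, against 2.42%, 2.99%, 2.77% and 2.41% in wild type. The constitutive subunit thus remained far above the inducible one in every library. The log2 ratio was higher in 5XFAD by 1.70 at 11 months and by 1.09 at 6 months, on average 1.40 (exact two-sided permutation test within ages, p = 0.00143, adjusted over 3 ratios 0.00429); this p is the smallest that the 700 arrangements allow. Psmb9 amounted to 2.66%, 1.73% and 3.85% of Psmb6 in 5XFAD at 11 months, against 0.895%, 1.45% and 0.799% in wild type. At 6 months it amounted to 0.856%, 1.19% and 1.1% in 5XFAD, against 0.729%, 0.654%, 0.815% and 0.35% in wild type. The genotypes did not overlap within an age, and the mean log2 difference was 1.07 (exact two-sided permutation test, p = 0.00286, adjusted 0.00429). Psmb10, the inducible partner of Psmb7, amounted to 68.2% to 80.6% of it in 5XFAD and 49.0% to 104% in wild type at 11 months, and to 62.6% to 89.2% in 5XFAD and 62.9% to 74.5% in wild type at 6 months. Its mean log2 difference was 0.01 (exact two-sided permutation test, p = 0.966), with overlap at both ages. Psmb5 and Psmb6 were themselves lower at 11 than at 6 months. In wild type their log2 fold changes were -0.46 and -0.43, both called in edgeR. In 5XFAD they were -0.34 and -0.35, with Psmb6 alone called. Shares at different ages thus differ in their denominators too.

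**Figure D3:**
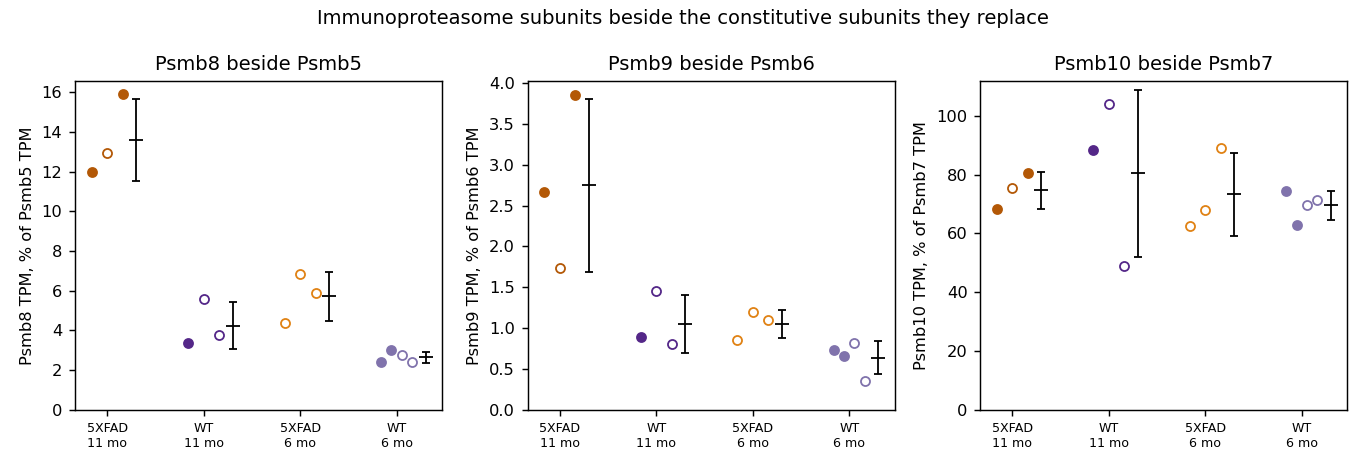
TPM of each immunoproteasome subunit as a percentage of the TPM of the constitutive subunit it replaces, by library, on linear axes from 0 (filled, Xist high; open, Xist low; bars, mean ± SD). Psmb8 reaches 11.97% to 15.9% of Psmb5 in 5XFAD at 11 months, against 3.34% to 5.6% in wild type, while the Psmb10 panel shows overlapping groups.

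Nlrc5 is the regulator known to switch on class I genes, and it was the least abundant member. Nlrc5 (ENSMUSG00000074151; chromosome 8, 94434356 to 94527272) stood at 4.86, 2.94 and 5.58 CPM in 5XFAD at 11 months, against 0.637, 1.29 and 0.750 CPM in wild type. Nlrc5 at 6 months had 1.03, 2.41 and 1.17 CPM in 5XFAD, against 0.778, 0.853, 1.51 and 0.858 CPM in wild type. The genotypes were apart at 11 months and overlapped at 6 months. For Nlrc5 the log2 fold change was 2.31 ± 0.40 (adjusted p = 0.003154) at 11 months and 0.61 ± 0.38 (adjusted p = 0.7021) at 6 months. The counts behind these values ran from 16 to 144 per library, so the fold is less precise than that of B2m, which had 1582 to 10309.

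Whether the genotype difference changed with age was tested as an interaction. All 10 members had a larger difference at 11 months than at 6 months, by 0.13 to 1.70 on the log2 scale, with Nlrc5 at 1.70 ± 0.55 and Tap1 at 0.98 ± 0.29. None of the 10 passed over all genes in edgeR's quasi-likelihood test (adjusted p from 0.9017 to 0.9995), and 0.00572% of all genes passed in this direction. Without adjustment, 6 of the 10 had p under 0.05 in edgeR, 6 in DESeq2, 4 in limma voom and 7 in limma on log2(TPM + 1), against 2.57% of all genes higher by edgeR, and 0 members passed after adjustment in any of the 4. The members move together from library to library, so these 10 values are not independent.

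The ages were also compared within each genotype, and these comparisons share their libraries with those above. Within 5XFAD 8 of the 10 members rose at 11 months relative to 6 months, all but H2-T23 and Psmb9, and 0 fell, while 4.84% of all genes rose and 2.39% fell. The members' median log2 fold change was 0.88 (range 0.35 to 1.54), against -0.0005 over all genes, and 9 did not overlap between the ages, as was true of 18.4% of all genes (17.3% in the lower direction). Age and sex were partly confounded here, since 2 of 3 libraries at 11 months and 0 of 3 at 6 months were female. With sex as a covariate 4 members were called (H2-K1, H2-D1, Tap1 and Tap2), among male libraries alone 0, and without 5XFAD replicate 1 at 6 months or replicate 3 at 11 months 1 (Tap1). Within wild type 0 of the 10 passed, with a median of 0.18 (range -0.17 to 0.48), while 2.42% of all genes rose and 1.29% fell. H2-K1 (0.48 ± 0.18) and Tap2 (0.42 ± 0.14) had p under 0.05 before adjustment in edgeR, DESeq2 called 0, and H2-K1 alone did not overlap between the ages, as was true of 9.11% of all genes (7.96% in the lower direction). Markers of several cell types moved with age too. Within 5XFAD 6 of 9 microglia markers rose (median log2 fold change 0.91, beside 0.88 for the members), with sums of 902 to 1253 CPM at 11 months and 523 to 550 CPM at 6 months, and in wild type 0 of 9 passed (median 0.47). Of 6 endothelial markers 4 rose in 5XFAD, with sums of 143 to 180 CPM at 11 months and 92.3 to 104 CPM at 6 months. In wild type 5 of 6 rose, with sums of 165 to 261 CPM at 11 months and 102 to 134 CPM at 6 months. Of 5 astrocyte markers 2 rose in 5XFAD (median 0.53) and 1 in wild type (median 0.51), and in 5XFAD 1 border macrophage marker, Mrc1, and 1 meningeal marker, Col1a2, rose as well (named after their values were seen). The part of these cells in the age comparisons was not tested.

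The libraries of a group kept a common order across members. Among 5XFAD libraries at 11 months, replicate 3 was the highest for all 10 members and replicate 2, the male library, the lowest for 9. Among those at 6 months, all male, replicate 2 was the highest for 8 and replicate 1 the lowest for 8. Over the 45 pairs of members, Pearson's r across the 13 libraries had a median of 0.91 (range 0.70 to 0.99), and after the 4 group means were removed a median of 0.69 (range 0.29 to 0.90). H2-T23 was the least like the others, with a median r of 0.77. These values describe libraries that share their groups and depth.

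Over 14613 named genes that are no members, the 8 whose log2 CPM was most like the mean z-score of the members were Trim30a (r = 0.99), Mlxipl (0.98), Ifi204 (0.98), Csf1 (0.98), Renbp (0.97), Lgals9 (0.97), Btk (0.97) and Slfn8 (0.97), over 13 libraries. After the group means were removed their r ran from 0.75 to 0.92, and 3 of the 8 (Ifi204, Csf1 and Btk) were among the 8 most alike by Spearman's rho. Their log2 fold changes at 11 months ran from 1.35 for Lgals9 to 3.13 for Ifi204.

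Markers of microglia moved with the members. The summed level of 9 microglia markers ran from 902 to 1253 CPM in 5XFAD and from 291 to 504 CPM in wild type at 11 months, and from 523 to 550 CPM in 5XFAD and from 282 to 291 CPM in wild type at 6 months. In edgeR's quasi-likelihood test 8 of the 9 rose at 11 months, all but Tmem119, and 5 of 9 at 6 months, against 3.8% and 1.3% of all genes. Their medians were 1.20 and 0.92 on the log2 scale, against -0.03 and -0.01 over all genes. None of the 9 was at 0 in any group. The summed CPM of the 10 members amounted to 62.7% to 76.5% of that of the microglia markers in 5XFAD and 53.3% to 89.7% in wild type at 11 months, and to 69.2% to 90.3% in 5XFAD and 66.0% to 79.7% in wild type at 6 months, so that these ranges overlapped at both ages. The overlap at 11 months rested on wild-type replicate 1 (89.7%, with the lowest marker sum of that age, 291 CPM). The other wild-type libraries of that age, at 53.3% and 55.0%, lay below all 5XFAD libraries, a split made after the values were seen. Per member the picture differed. Tapbp amounted to 3.43% to 4.12% of the markers in 5XFAD, against 5.06% to 8.49% in wild type at 11 months, and Tap2 to 1.6% to 1.93% in 5XFAD, against 2.35% to 4.23% in wild type. At 6 months Tapbp amounted to 4.58% to 5.36% in 5XFAD, against 6.71% to 7.75% in wild type. Tap2 at that age amounted to 1.68% to 2.22% in 5XFAD, against 2.68% to 3.28% in wild type. H2-T23 was likewise lower beside the markers, at 3.46% to 3.88% in 5XFAD, against 4.48% to 12.2% in wild type at 11 months, and 5.15% to 6.33% in 5XFAD, against 6.42% to 10.2% in wild type at 6 months. B2m amounted to 25.3% to 33.1% in 5XFAD and 16.7% to 30.7% in wild type at 11 months, with 16.7% and 19.5% in wild type without replicate 1. Nlrc5 was higher beside the markers at 11 months, at 0.326% to 0.522% in 5XFAD, against 0.191% to 0.257% in wild type. At 6 months its median was the lower in 5XFAD, at 0.212% (0.196% to 0.461%), against 0.297% (0.276% to 0.519%) in wild type, with overlap. None of these shares was tested, and the part of microglial number or state in the members' change was not tested.

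**Figure D4:**
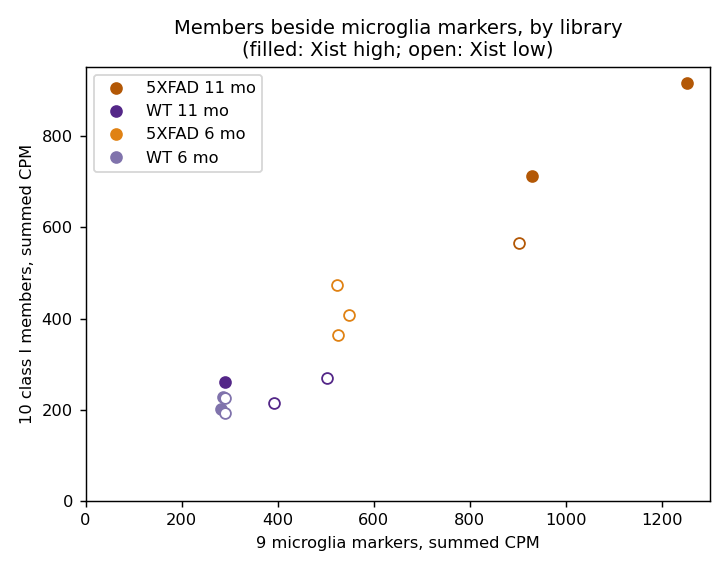
Summed CPM of the 10 members against summed CPM of 9 microglia markers, 1 point per library (filled, Xist high; open, Xist low), both linear axes from 0. The 5XFAD libraries at 11 months are the highest on both axes, those at 6 months come next, and the wild-type libraries of both ages lie lowest.

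Markers of T cells and natural killer cells were low apart from Cd4, but most T cell markers were higher in 5XFAD at 11 months. Of 8 T cell markers, 7 (all but Cd4) had every 5XFAD library above every wild-type library at 11 months, and 0 of 8 did so at 6 months. Of all tested genes, 10.4% did so at 11 months and 6.97% at 6 months, but most of these markers were too low to be among the tested genes. The sum of all 8 ran from 5.11 to 18.9 CPM in 5XFAD and from 3.76 to 43.1 CPM in wild type at 11 months, most of it Cd4. Without Cd4, a split made after the values were seen, it was 2.51, 2.06 and 2.25 CPM in 5XFAD, against 0.159, 0.283 and 0.458 CPM in wild type. Cd3e ran from 0.155 to 0.526 CPM in 5XFAD and from 0 to 0.0833 CPM in wild type, and Cd3g from 0.202 to 0.542 CPM in 5XFAD and from 0 to 0.0833 CPM in wild type. Cd3d ran from 0.0806 to 0.194 CPM and Cd8b1 from 0.0775 to 0.162 CPM in 5XFAD, and both were at 0 in wild type. The markers named here were chosen after their values were seen, their levels rest on few counts, and most of the markers fell below the filter. Of the 2 that passed it Cd5 was called by edgeR's quasi-likelihood test (3.11 ± 0.66, adjusted p = 0.01052, on 1 to 23 counts per library). It had 0.850, 0.484 and 0.891 CPM in 5XFAD and 0.0399, 0.121 and 0.0833 CPM in wild type. Outside 5XFAD at 11 months only wild-type replicate 1 at 6 months reached 10 counts of Cd5, with 11. Cd5 thus passed the filter through the group in which it was called higher, and the call is no independent support.

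Cd8a, a chain of the T cell coreceptor for class I, averaged 0.388 ± 0.173 CPM in 5XFAD and 0.0273 ± 0.0237 CPM in wild type at 11 months (SD, n = 3 each). It fell below the filter with all 13 libraries and was tested in 9 of the alternatives. Apart from the fit with no filter, it passed only through 5XFAD libraries at 11 months (0.194 to 0.524 CPM). No library of another group was above 0.119 CPM, so the calls that follow are no independent support. In the 9 alternatives edgeR's quasi-likelihood test called it in 5. These were with no filter (adjusted p = 0.04093), without each 5XFAD library at 6 months in turn and without 5XFAD replicate 3 at 11 months (0.02782 to 0.03788). It was not called in 4, without each wild-type library at 11 months in turn (0.05529 to 0.08017) and among male libraries (0.3043). The part of T cells in the members' change was not tested. Of 5 natural killer cell markers, the sum ran from 0.121 to 1.01 CPM in 5XFAD and from 0.0797 to 0.458 CPM in wild type at 11 months. Klrd1 was at 0 in both genotypes, and Ncr1 and Klrb1c were at 0 in wild type, against up to 0.0405 and 0.202 CPM in 5XFAD. Endothelial markers, another site of class I expression, were called in 0 of 6 cases at either age, with medians of -0.30 at 11 months and -0.25 at 6 months on the log2 scale.

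Other genes of the pathway were read from 8 lists by role, of which 47 of 60 genes passed the filter. At 11 months 8 of the 47 rose and 0 fell, while 3.8% of all genes rose, with a median log2 fold change of 0.15, well below that of the members. At 6 months 0 of the 47 passed in edgeR's quasi-likelihood test, 1 (Ifnar2) in DESeq2, and before adjustment 9 had p under 0.05 in the upward direction and 1 (Rfx5) in the downward direction, against 5.61% and 3.48% of all genes. Of 9 further heavy chain genes tested, 3 rose at 11 months. H2-M3, which presents formylated peptides, stood at 4.98, 3.79 and 6.04 CPM in 5XFAD and 2.43, 2.18 and 1.96 CPM in wild type (1.17 ± 0.22, adjusted p = 0.004637). H2-Q4 stood at 16.8, 9.11 and 19.8 CPM in 5XFAD and 5.02, 7.07 and 4.91 CPM in wild type (1.42 ± 0.30, adjusted p = 0.01419), and H2-Q7, the Qa-2 antigen, changed by 1.48 ± 0.34 (adjusted p = 0.02168). Both share much of their sequence with other heavy chains, 21.8% and 26.4% of their 50-base stretches, so their split of reads is uncertain. Each lost its call in 8 of 21 alternatives, among them the fit of the 11-month libraries alone, voom weights and sex as a covariate, and at 11 months without 5XFAD replicate 1 or 3 or wild-type replicate 1 or 3. Of 4 class I-like genes, Hfe, a regulator of iron uptake, rose by 0.82 ± 0.19 (adjusted p = 0.02531), a call lost in 7 of 21 alternatives.

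The lists around loading and cutting moved less. Of 6 loading helpers 0 were called at 11 months, Erap1, which trims peptides, having the smallest p (0.47 ± 0.13, adjusted p = 0.06241, called in 3 of 21 alternatives, DESeq2 among them). Of 3 immunoproteasome partners Psme1, a subunit of a proteasome activator, rose (0.66 ± 0.16, adjusted p = 0.02876; lost in 7 of 21 alternatives), and Psmb10 was at 0.12 ± 0.18. The 3 constitutive subunits Psmb5, Psmb6 and Psmb7 were at 0.11 to 0.15 and none was called, with Psmb6 having the smallest p (adjusted p = 0.5118). Of 8 regulators other than Nlrc5, among them the partners through which it binds promoters, 0 were called, and Rfxap had the smallest p (-0.21, adjusted p = 0.317). Of 12 interferon signalling genes 3 rose at 11 months, among them the receptor chains Ifnar2 (0.70 ± 0.10, adjusted p = 0.000541) and Ifngr1 (0.63 ± 0.15, adjusted p = 0.02678), whose call was lost in 8 of 21 alternatives, while H2-M3 and Ifnar2 lost theirs in 1, the male libraries alone. Ifng itself had 2 counts over all 13 libraries and was not tested. Of 2 receptors of class I tested neither was called, with Pirb at 0.88 (adjusted p = 0.1821).

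**Figure D5:**
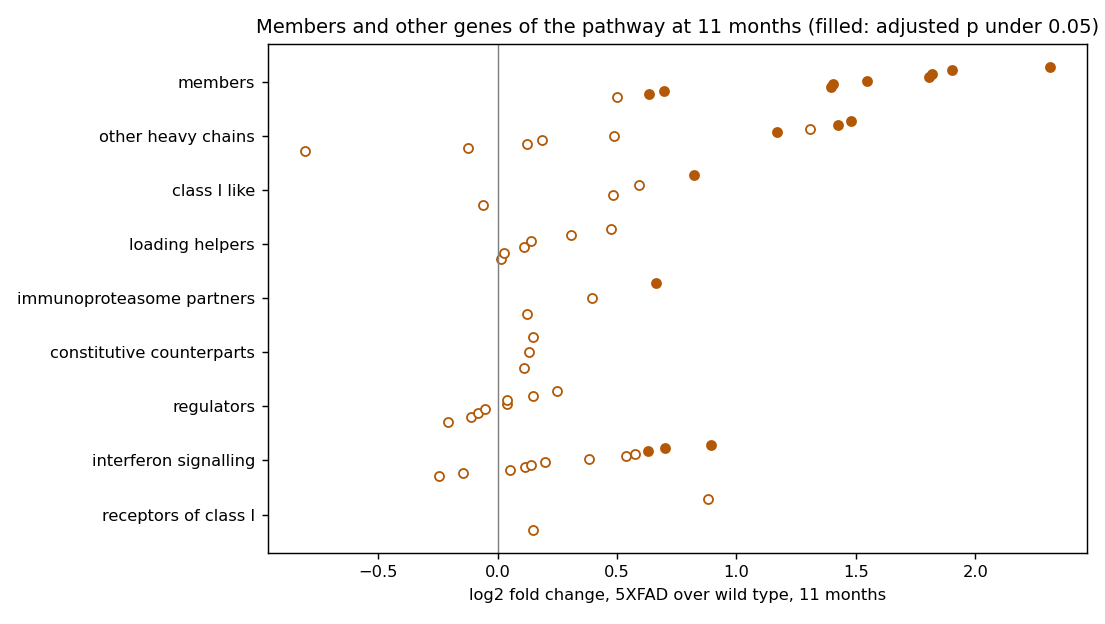
Log2 fold change of 5XFAD over wild type at 11 months for the 10 members and the 47 tested genes of 8 role lists, 1 point per gene; filled points have an adjusted p under 0.05. The members lie between 0.50 and 2.31, while loading helpers lie between 0.01 and 0.47, constitutive subunits between 0.11 and 0.15 and regulators between -0.21 and 0.25.

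Of the members 8 lie on chromosome 17 between 33915899 and 36032855, and 7 of these rose at 11 months. In the same interval 15 of the 107 other tested genes rose (14.0%) and 0 fell, against 3.8% and 0.503% of all genes. Among the 15 were C4b, Aif1, the further heavy chains H2-Q4 and H2-Q7 and the class II genes H2-Aa, H2-Ab1 and H2-Eb1 (named after their values were seen). The median of the 107 was 0.08 on the log2 scale. At 6 months 3 of the 8 members and 6 of the 107 others (5.61%) rose, against 1.3% of all genes. B2m, on chromosome 2, and Nlrc5, on chromosome 8, lie outside this interval, and their 11-month log2 fold changes of 1.90 and 2.31 were the highest of the 10.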

How the data were processed

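Per the submitters' processing notes, the authors used STAR 2.7.1, RSEM and the GRCm38 genome. RSEM's version, its annotation and the strand setting were not given in the sources used here. Of the deposited values, expected counts were tested; RSEM shares a read among the genes it fits, and 7.24% to 7.71% of a library's values were not whole numbers. The files also hold TPM, scaled by transcript length by the authors' quantifier and used here for levels between genes and for ratios, and FPKM, which the authors deposited and which was not used. Libraries were grouped by the genotype and age in their titles and numbered within a group in accession order. The labels do not tie libraries to separate animals. The p-values therefore measure only how these libraries vary, and some of that may be technical. Library totals of 23618289 to 26615772 counts set the precision. Within groups no pair of libraries was alike within sampling noise (chi-square per gene from 6.101 to 55.95).

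Symbols and coordinates come from GENCODE M21, which all 55536 identifiers matched. Expected counts were rounded, low genes were removed by filterByExpr in edgeR 4.0.16 (count at least 10, total at least 15), totals were scaled by TMM, and all 13 libraries entered 1 model of the 4 groups, which gives each comparison the same estimate of the spread. The robust quasi-likelihood test was used with Benjamini-Hochberg adjustment over all 17483 genes tested and a threshold of 0.05, in R 4.3.3. A value after ± beside a log2 fold change is its standard error, computed as the size of the unshrunken fold change over the root of F; beside a level it is the SD. The steps were tested on simulated data. Alternatives were RLE scaling, DESeq2 1.42.0, no filter, limma 3.58.1 on log2(TPM + 1), limma voom with sample quality weights, fits of the compared groups alone, sex as a covariate, each library left out in turn and, added after the data were seen, male libraries alone.

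The members and lists were chosen with earlier results of these data known. All 10 members are named. Of each role list the genes past the threshold in a genotype comparison are named, at most the 4 with the smallest p at 11 months, and where none passed the 1 with the smallest p. Marker lists are given by their summed level, the number called and the markers at 0. Lists of natural killer cells, B cells, border macrophages, neurons, astrocytes, oligodendrocytes, choroid plexus, meninges and red cells had 0 members called at 6 months, and at 11 months 1, Aqp4 of astrocytes. Likeness is Pearson's r of log2 CPM (prior count 2) with the mean z-score of the members, for the 8 highest genes, skipping unnamed genes, pseudogenes, Xist and Y-linked genes. The promoter windows come from RefSeq (GRCm38.p6), and the motif arrangement was looked for after the sequences had been read. The human transgenes were not analysed here. One gene that the naming rule selects is not reported here.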

Additional observations from a re-analysis of the deposited data

Results flagged for a closer look

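Nlrc5 in wild type at 6 months was the single value that stood apart within its group. Replicate 3 had 1.513 CPM, against 0.778, 0.853 and 0.858 CPM in the other 3 libraries, a gap larger than Dixon's 95% critical value for 4 samples allows. The 10 members were each checked in this group, and chance flags about 1 in 20 such groups. The same library was the highest of its group for 6 of the 10 members.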

How the results depend on the processing

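No paired analysis was possible because the titles give every library a number of its own and the replicate numbers used here follow accession order. All 10 members stayed positive in both genotype comparisons under all alternatives run. Without 1 library at a time, 3 or 4 members were called at 6 months, 7 to 9 at 11 months (7 without 5XFAD replicate 3 at 11 months), 1 to 9 for age in 5XFAD and 0 or 1 for age in wild type (Tap2, without wild-type replicate 3 at 11 months). Among male libraries alone, an alternative chosen after seeing the data, 2 members were called at each age; at 11 months that leaves 1 5XFAD library, assumed to vary like the others. For age in 5XFAD 4 were called with sex as a covariate and 0 among males. Pathway genes called at 6 months were 1 with DESeq2, voom weights or the sex covariate, and 0 or 1 without single libraries. At 11 months they were 11 with DESeq2, 10 with no filter, 6 with voom weights or the sex covariate, 5 on the TPM scale, 3 in the fit of both groups alone, 0 among males, and 3 to 9 without single libraries; on the TPM scale the median of all genes was -0.118, and -0.107 at 6 months. The interaction of H2-K1 turned to -0.0534 among males. That of H2-T23 turned to -0.00624 with the sex covariate, and to -0.02 without wild-type replicate 3 at 6 months, -0.10 without wild-type replicate 3 at 11 months and -0.05 without 5XFAD replicate 3 at 11 months, in a range up to 0.38 without single libraries. The log2 ratio difference of Psmb10 over Psmb7 ran from -0.152 to 0.12 without single libraries. The cause of these shifts was not tested. Psmb9 and Nlrc5, with as few as 26 and 16 counts in a library, are limited most by depth.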
